A study of Sus scrofa with 8 samples.

Results

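The sites described here are the single nucleotide polymorphism (SNP) sites of the major histocompatibility complex (MHC) of the pig, read from liver RNA. They were taken from the deposited table of SNP sites by position alone, as every site on chromosome 7 of the pig genome build Sscrofa11.1 over 3.5 Mb from position 22000000. This rule found 2351 of the 269579 sites in the table, and 17510 sites of the table were on chromosome 7. A site is a position at which at least 1 pool carried a letter other than the reference base. Such a pool is called non-reference at the site, and a pool without reads at the site has no letter there. The pigs were 24 male Large White x Landrace animals, all made steatotic by a diet rich in cholate, cholesterol, fructose and saturated fat and poor in methionine and choline. The control group stayed on that diet, and the squalene group received it with 0.5% squalene. Liver RNA was pooled in equal amounts from 3 animals, which gave 4 pools per group, and each pool is 1 replicate, so that values of single animals cannot be given. The 4 liver genes ALB, APOA1, TTR and SERPINA1 were expressed in all 8 pools, from 958 FPKM (fragments per kilobase of gene, scaled to the mapped fragments of the library) for SERPINA1 upward.

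The MHC holds the genes with which cells show peptides to T cells, and in the pig it is called the swine leukocyte antigen (SLA) complex. Class I molecules, such as those encoded by SLA-1, SLA-2 and SLA-3, present peptides made inside almost any cell, and class II molecules, such as SLA-DR and SLA-DQ, present peptides taken up by immune cells. The class III stretch between them carries complement, cytokine, heat shock and housekeeping genes. Classical class I and II genes are known as some of the most variable genes of vertebrates, mostly in the exons that encode the peptide-binding groove, which are exons 2 and 3 in class I genes and exon 2 in class II genes.

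So that the variant bases can be seen in place, 1 coding exon is shown for each of the 4 SLA genes with the most coding sites. It is the exon with the most SNP sites. In SLA-3, exons 2 and 3 tied with 7 sites each, and exon 2 is shown. Some shorter coding exons of the SLA genes had more sites per kb. Each is the reference strand of the gene, 5′ to 3′, with the bases at SNP sites in capitals.
SLA-3 exon 2, chr7:22938701-22938970: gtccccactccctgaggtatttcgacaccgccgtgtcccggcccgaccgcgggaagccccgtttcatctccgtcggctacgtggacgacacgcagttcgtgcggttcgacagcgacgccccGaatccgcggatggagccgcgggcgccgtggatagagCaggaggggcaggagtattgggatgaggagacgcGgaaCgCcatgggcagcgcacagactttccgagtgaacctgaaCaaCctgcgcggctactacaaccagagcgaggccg
SLA-1 exon 3, chr7:22825330-22825605: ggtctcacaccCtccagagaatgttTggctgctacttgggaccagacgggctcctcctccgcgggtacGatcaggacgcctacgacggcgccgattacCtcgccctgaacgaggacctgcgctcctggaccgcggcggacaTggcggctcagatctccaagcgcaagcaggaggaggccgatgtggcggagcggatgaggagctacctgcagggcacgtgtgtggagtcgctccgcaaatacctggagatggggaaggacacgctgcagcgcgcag
SLA-DRB1 exon 2 (minus strand), chr7:24906325-24906594: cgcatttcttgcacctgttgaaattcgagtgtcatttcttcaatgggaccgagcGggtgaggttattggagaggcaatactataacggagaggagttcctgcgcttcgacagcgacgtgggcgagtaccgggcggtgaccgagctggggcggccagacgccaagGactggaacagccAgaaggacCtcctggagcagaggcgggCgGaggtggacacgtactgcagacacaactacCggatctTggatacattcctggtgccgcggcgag
SLA-2 exon 3, chr7:22956916-22957191: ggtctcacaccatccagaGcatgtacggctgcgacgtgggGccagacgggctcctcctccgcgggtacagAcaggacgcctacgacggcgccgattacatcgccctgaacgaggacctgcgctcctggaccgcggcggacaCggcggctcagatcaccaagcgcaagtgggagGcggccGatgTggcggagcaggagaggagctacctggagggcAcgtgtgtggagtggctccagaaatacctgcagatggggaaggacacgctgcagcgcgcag
SLA-3 had 7 sites in the 270 bases of its exon 2, of which 6 were nonsynonymous, which means that the called base changed the encoded amino acid. SLA-DRB1 had 8 sites in the 270 bases of its exon 2, and 7 of them were nonsynonymous. SLA-2 had 8 sites in the 276 bases of its exon 3 with 7 nonsynonymous, and SLA-1 had 5 sites in its exon 3 with 4 nonsynonymous. All 4 exons encode a part of the peptide-binding groove.

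The calls at these bases differed between pools in several ways. Changes are written with the reference base of the plus strand, the position and the called base. At C22938859A of SLA-3 exon 2 and at G22956934T of SLA-2 exon 3 all 8 pools were non-reference. At C22938897A and C22938899T of SLA-3, 2 bases apart, the same 2 pools were non-reference, control pool 2 and squalene pool 2. In SLA-DRB1 exon 2, G24906390T and C24906388T were both non-reference in squalene pools 2, 3 and 4 and in no other pool, whereas G24906409T was non-reference in the 4 control pools and squalene pool 1. Both of these close pairs of sites thus had 1 set of pools each. At position 22825398 of SLA-1 exon 3 the reference base was G and no pool carried it alone: 3 pools were called A, 1 was called C and 4 were called with both A and C.

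The number of sites with a letter differed little between the pools. Of the 2351 sites, 1798, 1831, 1880 and 1714 had a letter in control pools 1 to 4, and 1794, 1890, 1712 and 1769 had one in squalene pools 1 to 4. A letter in all 8 pools was present at 1180 sites. The tables used here give no number of reads behind a letter, so no interval can be given for a single call. Only 2 to 4 calls per pool had 2 letters in the region. At the sites with more than 1 alternative base, none of these calls paired the reference base with another. A non-reference letter therefore does not exclude reference copies in a pool of 3 animals. Since RNA was sequenced, a site could be found only where a transcript was covered.

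SNP sites were packed unevenly along the region, with the most sites per Mb in the blocks of the class I and class II genes. The region held 672 sites per Mb. Among 702 fixed windows of 3.5 Mb over the chromosomes, whose median was 284.5 sites, 1 window held more sites than the 2351 of the region, with 2419 sites on chromosome 2. The bounds of the region were placed around the MHC, whereas the windows lay on a fixed grid. On that grid, the window chr7:21000001-24500000 held 1951 sites, behind windows with 2419, 2311 and 1966. The median distance between neighbouring sites was 141 bases in the region and 295 bases in the rest of the genome.

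**Figure D1:**
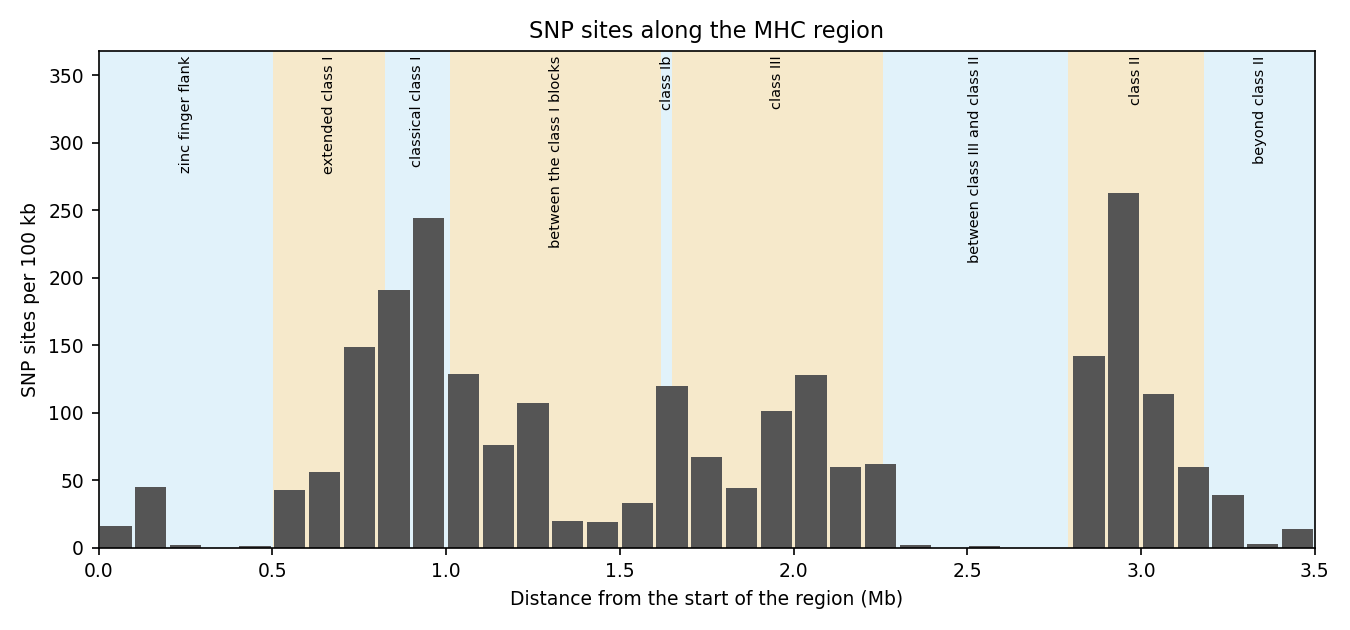
SNP sites per 100 kb (vertical axis) against the distance from the start of the region in Mb (horizontal axis), with shading for the blocks of genes. The 5 highest bars hold 263, 244, 191, 149 and 142 sites and lie in and next to the classical class I block and in the class II block.

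The blocks were set by the annotated ends of genes. The classical class I block, from the start of SLA-1 to the end of SLA-11 (chr7:22824137-23010790), held 495 sites in 0.187 Mb, or 2652 sites per Mb. The class II block, from BTNL2 to SLA-DOA (chr7:24789988-25182665), held 578 sites, or 1472 per Mb. The small class Ib block with MIC-1, SLA-8, SLA-7 and SLA-6 held 54 sites in 0.0297 Mb. Class III, up to NOTCH4, held 489 sites, or 806 per Mb. The 0.534 Mb between NOTCH4 and BTNL2 held 6 sites, each seen in 1 pool only. Of the 35 bins of 100 kb, the highest was chr7:24900001-25000000 with 263 sites, which carries SLA-DRB1, SLA-DQA1 and SLA-DQB1. The second was chr7:22900001-23000000 with 244 sites, around SLA-2 and SLA-3.

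Measured per length of exon, these blocks kept their order. The classical class I block had 215 exonic sites in 21.5 kb of exon, and there were 6.01 per kb in the class Ib block, 3.86 in the class II block and 2.19 in class III. Of all sites of the region, 653 (27.8%) were coding, 590 (25.1%) lay elsewhere in exons, 629 (26.8%) lay in introns and 479 (20.4%) lay between genes. In the rest of the genome the coding share was 17.8% and the intron share 38.0%.

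The classical class I genes carried the most variation among the class I genes. SLA-3 (chr7:22938211-22942735) had 50 exonic sites, the most of any gene in the region, or 16.1 per kb of exon. It was non-reference at 33, 39, 35 and 20 of them in control pools 1 to 4 and at 32, 41, 35 and 40 in squalene pools 1 to 4. Control pool 4 was the lowest, and the groups overlapped. SLA-1 (chr7:22824137-22920154) had 31 exonic sites, 15.2 per kb, with 24, 25, 24 and 22 non-reference in the control pools and 26, 23, 20 and 20 in the squalene pools. SLA-2 (chr7:22916747-22959405) had 29, or 13.1 per kb, with 17, 18, 14 and 17 against 23, 24, 16 and 16. The pools of both groups overlapped for these genes as well. SLA-2 was also the most highly expressed of the SLA genes, at 1797 ± 465 FPKM over the control pools and 2298 ± 371 over the squalene pools (SD, n = 4 each).

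The other class I genes varied less. SLA-5 had 10 exonic sites, SLA-7 had 19, SLA-8 had 9 and SLA-6 had 8, which is 4.68 to 9.50 per kb. SLA-6, SLA-7 and SLA-8 are the class Ib genes, which in general vary less than the classical ones. The pseudogenes SLA-4 and SLA-11 had 10 and 27 sites over their whole length, 5.04 per kb in both. The class I list, over its 9 genes found in the annotation, had 193 exonic sites in 21.6 kb, or 8.94 per kb, and each of the 9 genes had at least 1. None of the 4 listed class I-like symbols was found under that spelling in the annotation. The MIC-1 pseudogene, which lies in the class Ib block, had 6 sites. LOC100153163, annotated as MHC class I polypeptide-related sequence B, had 17 exonic sites, or 7.91 per kb. It was non-reference at 12, 11, 13 and 12 of them in the control pools. In the squalene pools the numbers were 12, 10, 2 and 3, with overlap at 12.

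Among the class II genes, those of the DR and DQ molecules stood highest. SLA-DRB1 (chr7:24901386-24914016), the beta chain of the DR molecule, had 31 exonic sites or 18.0 per kb, the highest density of any SLA gene. It was non-reference at 15, 15, 16 and 12 sites in the control pools and at 20, 18, 16 and 16 in the squalene pools, so that the groups met at 16. None of its 31 exonic sites was non-reference in all 8 pools, whereas 15 of 50 were in SLA-3. SLA-DQA1 and SLA-DQB1, the chains of the DQ molecule, had 22 and 19 exonic sites, or 16.7 and 15.9 per kb. SLA-DQA1 was non-reference at 14, 13, 17 and 17 sites in the control pools and at 15, 16, 15 and 15 in the squalene pools. SLA-DQB1 was non-reference at 11, 13, 11 and 8 against 15, 12, 16 and 13, again with overlap.

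SLA-DRA, the alpha chain of DR, had 13 exonic sites and was non-reference at 8 to 13 of them. SLA-DMA and SLA-DMB, which help to load peptides onto class II molecules, had 6 and 4 exonic sites. SLA-DOA and SLA-DOB, which modulate that loading, had 22 and 13, and SLA-DOA reached 11.4 per kb. The pseudogenes SLA-DRB4, SLA-DQB2 and SLA-DRB5 had 7, 10 and 11 sites, and SLA-DYB had none. Of the 12 genes of the class II list, 11 had an exonic site, and the list had 158 sites in 33.1 kb.

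The SLA genes differed widely in level, on the FPKM scale, which is per length. SLA-1 stood at 878 ± 38.7 over the control pools and 1073 ± 129 over the squalene pools, and SLA-3 at 260.5 ± 18.8 and 259.5 ± 69.8 (SD, n = 4 each). Of the class II genes, SLA-DRA stood at 289.6 ± 59.4 and 257 ± 69.4, SLA-DQA1 at 229 ± 52.0 and 242 ± 62.0, and SLA-DRB1 at 90.2 ± 21.4 and 61.7 ± 17.8. These levels of the diets were not tested here. The denser genes were thus not all the more highly expressed ones, since SLA-DRB1 had the highest site density of the SLA genes at a lower level than SLA-1, SLA-2 and SLA-3. Over 86 genes of the region, however, the Spearman correlation of level and site density was positive, at 0.328. Without the 14 SLA genes among them it was 0.176.

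**Figure D2:**
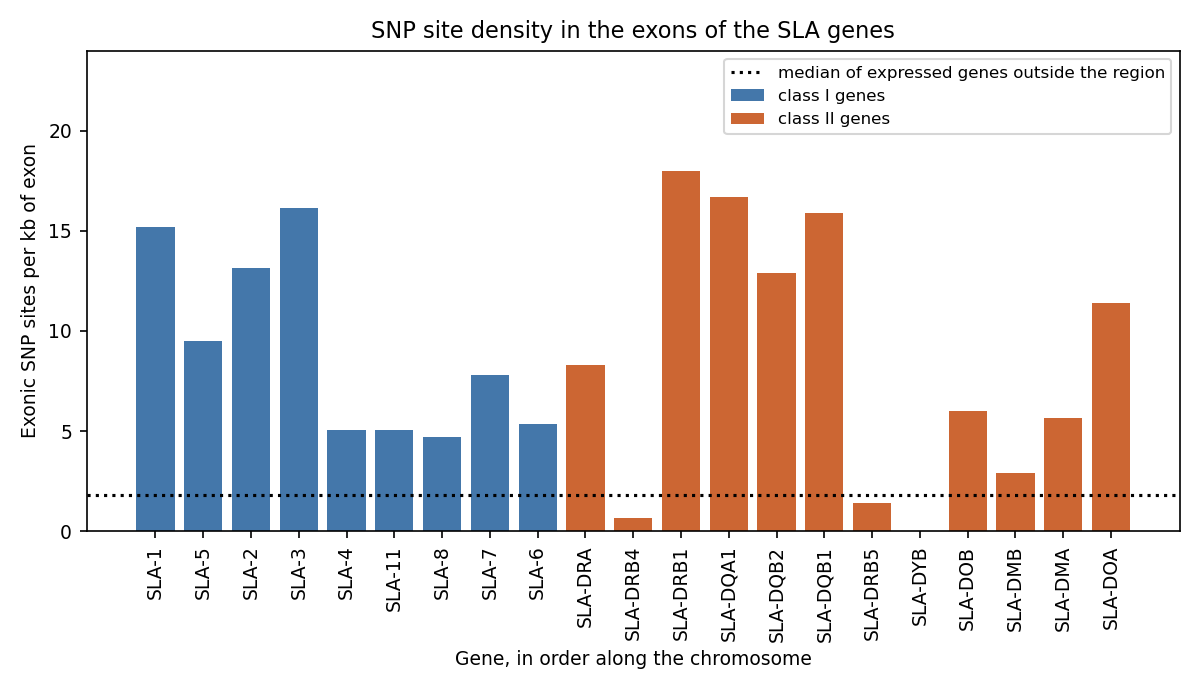
Exonic SNP sites per kb of exon (vertical axis) for the class I and class II genes in their order along the chromosome (horizontal axis). SLA-DRB1 with 18.0, SLA-DQA1 with 16.7 and SLA-3 with 16.1 are the highest bars, and the dotted line is the median of the expressed genes outside the region, 1.79 per kb. For the pseudogenes the whole annotated length counts as exon.

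The genes that make peptides ready for class I also varied. TAP2, a subunit of the pump that carries peptides into the endoplasmic reticulum, had 31 exonic sites, or 9.60 per kb, and was non-reference at 22, 20, 21 and 25 of them in the control pools and at 18, 19, 24 and 13 in the squalene pools. TAP1, its partner subunit, had 11 sites and 3.83 per kb. The antigen processing list as a whole had 58 exonic sites in 8.40 kb over 4 genes.

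In class III, the complement genes led by sites seen in strongly expressed transcripts. C4A, the fourth complement component, had 29 exonic sites, of which 14 to 24 were non-reference per pool, at 283 FPKM. C2, an early protease of the same cascade, had 10 exonic sites with 6 to 9 non-reference. The 3 complement genes found had 45 sites in 10.6 kb, or 4.25 per kb. ATF6B, a transcription factor of the unfolded protein response, had 29 exonic sites, and NOTCH4, a Notch receptor, had 30. TNXB, an extracellular matrix protein, had 26 sites over 15.7 kb of exon, and 4 of them were covered in all 8 pools, at 0.361 FPKM. The class III housekeeping list had 249 exonic sites in 108 kb, or 2.30 per kb, with sites in 32 of its 34 genes.

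The remaining lists had lower densities. The heat shock list had 14 sites (1.58 per kb), led by BAG6, a chaperone, with 6, followed by HSP70.2, an inducible Hsp70, and HSPA1L with 4 each. The list of butyrophilin and TRIM genes had 44 (1.64 per kb), led by TRIM26 with 12 and TRIM10 with 11. The cytokine and inflammation list had 24 (1.75 per kb), led by NFKBIL1 with 6, followed by IER3, TNF and LTB with 4 each. The extended class II list had 43 (1.78 per kb), led by SLC39A7, a zinc transporter, with 13 and RXRB, a retinoid X receptor, with 11. The class I flank had 190 (2.28 per kb), led by MDC1, a DNA damage checkpoint mediator, with 34 and PPP1R10 with 19. Of the genes outside the lists, the long noncoding RNAs LOC100155975 and LOC110261491 had 34 and 27 exonic sites.

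In exons of genes expressed at a mean of 1 FPKM or more, the region carried more non-reference sites per length than the rest of the genome. There were 2.49, 2.47, 2.55 and 2.23 non-reference sites per exonic kb in control pools 1 to 4 and 2.51, 2.62, 2.45 and 2.30 in squalene pools 1 to 4, over 219.6 kb of exon. In the rest of the genome the 8 pools ranged from 1.21 to 1.28 over 47015 kb. The difference of 1.22 ± 0.124 sites per kb (SD of the differences, n = 8 pools) had p = 0.00781 in a two-sided exact sign-flip permutation test, the smallest p that 8 pools allow, and an adjusted p of 0.0156 (Benjamini-Hochberg over 8 tests). All pools share the breed and the list of sites, so this p and those below for the region against other sites measure only how evenly the difference held over the pools. Without the SLA class I and II genes, an alternative chosen after seeing the data, the difference was 0.616 per kb. With no filter on FPKM it was 0.589. Here and below, the SLA class I and II genes are those of the class I and class II lists. In the difference of 0.616 per kb without them, expressed class I and DRB1-like gene models such as LOC100513601, LOC100153163 and LOC100153139, with 17 exonic sites each, were still counted. Of 10982 genes at 1 FPKM or more in the genome, SLA-DRB1 ranked 6 and SLA-3 ranked 13 by exonic sites per kb, and 4 SLA genes stood among the first 20. The first rank was held by LOC106504372, a DR beta-like gene model of 283 bases in the region with 7 exonic sites, all of which also lie in the pseudogene SLA-DRB5.

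Changes of the encoded protein made up a larger share of the coding sites in the region than elsewhere, above all in the SLA genes. In the SLA class I and II genes, 62.2, 63.3, 61.2 and 64.8% of the coding non-reference sites of control pools 1 to 4 were nonsynonymous, and 64.5, 63.0, 62.5 and 64.2% of those of squalene pools 1 to 4, out of 91 to 110 such sites per pool. The other genes of the region include class I and II gene models outside the lists, such as LOC100513601 with 11 nonsynonymous and 5 synonymous sites. In all these other genes together the share was 33.2 to 37.9%. These ranges did not overlap. The difference was 28.5 ± 1.87 percentage points (SD of the differences, n = 8 pools; exact sign-flip permutation test, p = 0.00781, adjusted p = 0.0156) and was positive in 8 of 8 pools. With class I genes alone it was 33.8 points and with class II genes alone 20.4 points.

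For the whole region, the nonsynonymous share was 41.2 to 45.1%, against 28.1 to 29.0% in the rest of the genome. The difference of 14.1 ± 1.38 points (SD, n = 8 pools) was positive in 8 of 8 pools, with p = 0.00781 in the exact sign-flip permutation test and an adjusted p of 0.0156. Without the sites inside the spans of the SLA class I and II genes it was 4.80 points, a change of more than 1.5 times. The span of SLA-1 includes LOC100513601, whose sites were thus left out here as well. Counted over sites and called bases rather than pools, the SLA genes had 99 nonsynonymous and 51 synonymous changes, a ratio of 1.94, the other genes of the region 191 and 303, a ratio of 0.630, and the rest of the genome 14188 and 31824, a ratio of 0.446.

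The exons of the peptide-binding groove held many of the nonsynonymous sites. In exons 2 and 3 of 6 class I genes, 35 of 43 sites (81.4%) were nonsynonymous, and in their other coding exons 19 of 31 (61.3%). In exon 2 of 8 class II genes, 14 of 20 sites were nonsynonymous, and in their other coding exons 20 of 40. Over the 6 class I genes together, site density was also higher in exons 2 and 3. It was 11.8 sites per coding kb there, against 9.01 in the other coding exons. Taken singly, only SLA-2 and SLA-3 had this direction. In SLA-1, SLA-6, SLA-7 and SLA-8 the other coding exons were the denser ones. Pooled over the 8 class II genes, exon 2 had 9.43 sites per coding kb against 9.57 in the other coding exons, and these genes include those of DM and DO. By gene, exon 2 had 16.3 sites per coding kb in SLA-DRA, 29.6 in SLA-DRB1, 16.1 in SLA-DQA1 and 7.41 in SLA-DQB1. It had 7.09 in SLA-DMB and no site in SLA-DMA, SLA-DOA and SLA-DOB. SLA-5 was left out of these counts because its annotated model is broken into 19 short exons. These counts are a description, with no test.

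**Figure D3:**
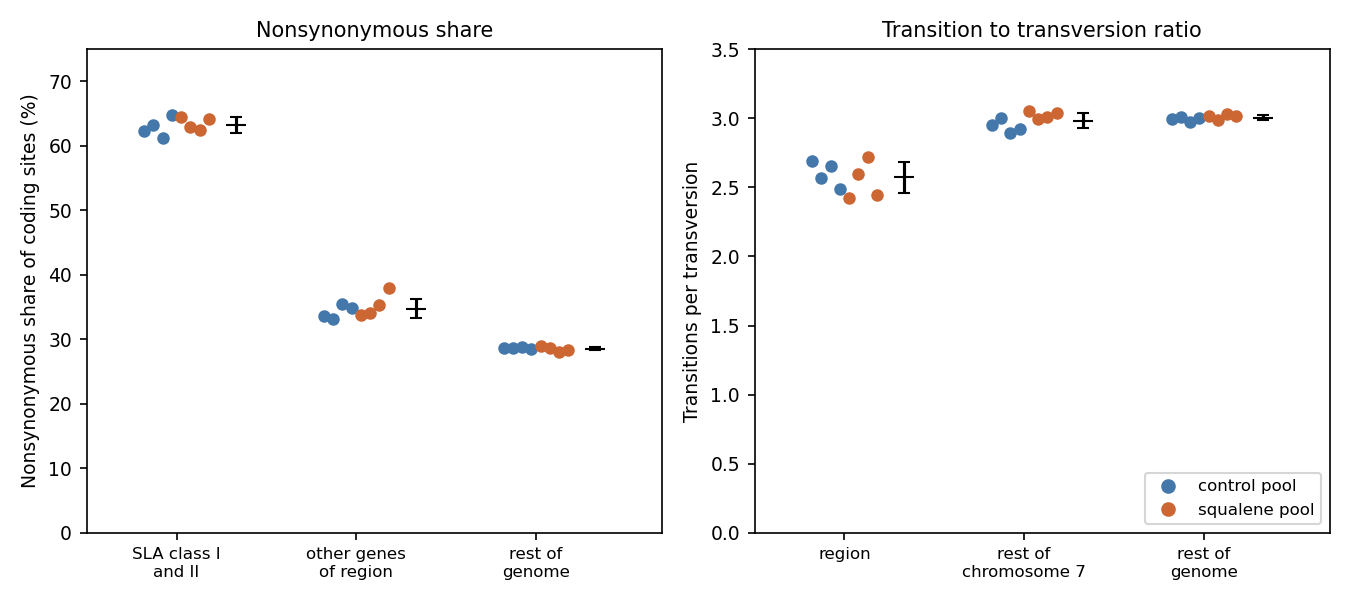
Left, the nonsynonymous share of coding non-reference sites in % (vertical axis) for the SLA class I and II genes, the other genes of the region and the rest of the genome. Right, transitions per transversion in the region, in the rest of chromosome 7 and in the rest of the genome. Each point is 1 pool and the bars are the mean and SD of the 8 pools; all 8 SLA points lie above 61% and all other points on the left below 38%, and the region lies at or below 2.72 transitions per transversion.

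Transitions, the A-G and C-T changes, were less dominant in the region than elsewhere. The A-G changes of the region numbered 342.5 ± 33.7 in a control pool and 342.5 ± 26.2 in a squalene pool on average (SD over 4 pools each), and the C-T changes 327.25 ± 24.1 and 335.5 ± 36.8. Among the transversions, C-G changes numbered 84.0 ± 8.98 and 87.5 ± 5.20, and A-C changes 64.75 ± 8.02 and 67.75 ± 5.56. The A-T changes numbered 46 ± 2.16 and 47 ± 4.97, and the G-T changes 62.75 ± 5.74 and 64.5 ± 9.54. C-G changes made up 9.17 ± 0.489% of the calls of a pool in the region and 7.10 ± 0.0572% in the rest of the genome (SD, n = 8 pools), and the lowest pool of the region, with 8.48%, lay above the highest of the rest, with 7.17%.

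The ratio of transitions to transversions was 2.69, 2.57, 2.65 and 2.49 in control pools 1 to 4 and 2.43, 2.60, 2.72 and 2.44 in squalene pools 1 to 4. In the rest of the genome it was 2.98 to 3.03. The region was lower in 8 of 8 pools, by -0.43 ± 0.12 on average (region minus rest; SD, n = 8 pools; exact sign-flip permutation test, p = 0.00781, adjusted p = 0.0156). The ratio differed within the region, from 1.62 in the classical class I block to 2.46 in class II and 3.99 in class III over all calls. Without the sites inside the spans of the SLA class I and II genes, the difference turned to 0.19 above the rest of the genome (p = 0.0234, same exact test). These spans include introns and other gene models inside them, such as LOC100513601.

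Near-identical copies limit what a site in a class I gene means. SLA-1, SLA-2, SLA-3 and LOC100513601, a class I gene without a name, were 88.8 to 99.3% identical in pairs over the aligned coding exons of 270 or 276 bases. At 32 of 45 sites in these exons (71.1%) the called base was the reference base of another copy at the same place, by gene 10 of 12 in SLA-1, 9 of 10 in LOC100513601, 5 of 9 in SLA-2 and 8 of 14 in SLA-3. The reference base differed between copies at 36 of these 45 sites (80.0%) and at 9.69% of all aligned positions. Whether reads from another copy were placed on these genes was not tested, and the values of class I genes, as well as those of the DRB copies, are uncertain to that extent. The last exon of SLA-1 in the annotation is shared with LOC100513601, and the models of SLA-1 and SLA-2 span neighbouring genes.

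More than 1 alternative base was also most frequent in this block. In the region 13 sites (0.553%) had it, against 230 (0.0861%) in the rest of the genome, and 11 of the 13 lay in the classical class I block. Of those 11, 4 were in exons of SLA-1, 3 in SLA-3 and 1 each in SLA-2, SLA-5 and LOC100515902. The last of the 11 lay outside exons. Elsewhere, 1 was in an exon of ATF6B and 1 in SLA-DRB1 exon 2.

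Many sites of the region were non-reference in 1 pool, and many others in all 8. Of the 2351 sites, 1016 (43.2%) were non-reference in 1 pool and 296 (12.6%) in all 8. Among the 1180 sites covered in all 8 pools, 244 (20.7%) were non-reference in 1 pool and 296 (25.1%) in all 8, and the numbers in 2 to 7 pools were 126, 102, 82, 93, 95 and 142. In the rest of the genome the shares in 1 and in 8 pools were 17.5% and 25.7%. The authors' list of sites that passed their filter in all pools held 213 sites of the region, each of them among the 296.

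**Figure D4:**
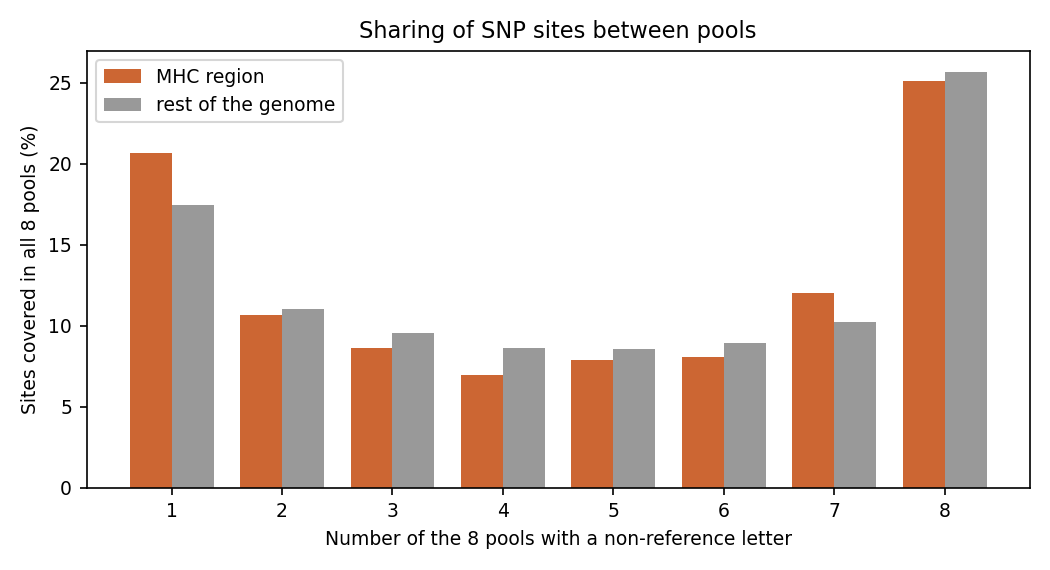
Share of the sites covered in all 8 pools, in % (vertical axis), by the number of pools with a non-reference letter (horizontal axis), for the region and the rest of the genome. Both have their highest bars at 8 pools, with 25.1% and 25.7%, and their next at 1 pool, with 20.7% and 17.5%.

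The comparison of the diets asked whether squalene pools carried more or fewer variant sites in the region. The control pools were non-reference at 929, 972, 975 and 821 sites and the squalene pools at 954, 1039, 879 and 896. The means were 924 ± 72.0 and 942 ± 72.2 (SD, n = 4 each), a difference of 17.75 sites that was smaller than the spread between pools (exact permutation test, two-sided, p = 0.743, adjusted p = 0.743). As a share of the covered sites, the control pools had 51.7, 53.1, 51.9 and 47.9% and the squalene pools 53.2, 55.0, 51.3 and 50.7%, with a difference of 1.41 points (exact permutation test, p = 0.429, adjusted p = 0.490). Against the rest of the genome, where pools had 51.9 to 55.3%, the region was lower by -1.79 ± 2.25 points (region minus rest; SD, n = 8 pools) in 6 of 8 pools, which did not pass the threshold (exact sign-flip permutation test, p = 0.0547, adjusted p = 0.0762).

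Over the sites covered in both pools of a pair, the 6 control pairs matched at 68.3 to 74.2% of sites with a mean of 71.5% in the region, and the 6 squalene pairs at 63.4 to 68.4% with a mean of 64.7%. The 16 pairs between the groups matched at 58.9 to 69.7% with a mean of 65.6%. Pairs within a group matched 2.53 points more than pairs between the groups (exact permutation test over the pools, p = 0.0571, adjusted p = 0.0762). Swapping the group labels leaves this difference unchanged, so 0.0571 is the smallest p this test allows. It could not pass the threshold and does not decide the question. The lowest pair was control pool 4 and squalene pool 4. In the rest of the genome the same difference was -0.20 points (exact permutation test, p = 0.457, not adjusted), and all 28 pairs lay between 64.0 and 68.1%, with means of 65.7% for control pairs and 66.5% for squalene pairs. Control pairs against squalene pairs were not tested.

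**Figure D5:**
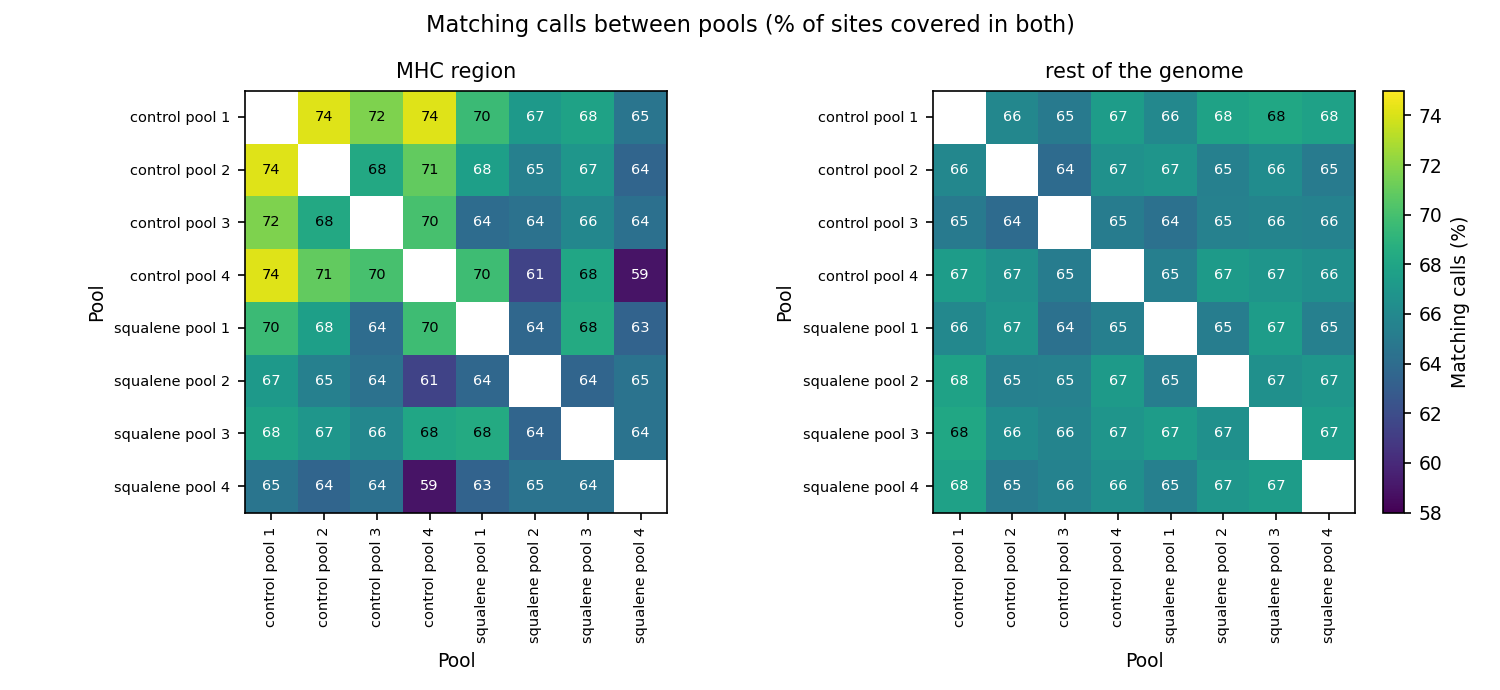
Matching calls between each 2 pools, in % of the sites covered in both (colour and number), for the region on the left and the rest of the genome on the right; rows and columns are the pools. Control pairs lie between 68.3 and 74.2% in the region, and all pairs of the rest of the genome between 64.0 and 68.1%.

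A few sites separated the groups fully by letter, with all 4 pools of one group non-reference and all 4 of the other reference. Since a letter can leave out a base present in a pool, these need not be fixed differences. There were 11 such sites in the region of 1180 covered in all 8 pools (0.932%). Over all sites of the genome covered in all 8 pools, 239 of 113408 were separated, a background of 0.211%. Fisher's exact test gave each of them p = 0.0286, the smallest p that 4 against 4 pools allow, and after Benjamini-Hochberg adjustment over the whole table no site passed (adjusted p = 1 for all). Full separation fixes that p, and no site could pass unless most of the tested sites were separated. The test therefore does not decide the question for any single site. At 9 of the 11 the squalene pools were non-reference, a direction with a background of 0.082%, and at 2 the control pools were. Nearby sites of a chromosome can be inherited together, so the 11 sites are not independent. With 1 pool left out, fewer pools have to differ, so a count can rise for that reason alone. The count of the region was then 13 to 21 (1.07 to 1.73%) and the background 0.455 to 0.592%. The count of the region moved by more than 1.5 times without control pool 2 (19), squalene pool 1 (20), squalene pool 2 (20) or squalene pool 3 (21). Over all sites of the genome, the count went from 239 to between 528 and 683.

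Of these 11 sites, 7 were coding. The 4 in SLA genes were all nonsynonymous, and the 3 in other genes were all synonymous. Of all coding changes, 66.0% were nonsynonymous in the SLA class I and II genes and 38.7% in the other genes of the region. With so few separated sites, a difference from these shares was not tested. In SLA-3 exon 2, shown above, C22938936A and C22938939G lie 3 bases apart at bases 236 and 239 of the printed run, and the control pools read C at both while the squalene pools read A and G. In SLA-DRB1 exon 2, C24906430A lies at base 165 of the printed run, and squalene pool 2 was called with T as well as A. SLA-DQB1 had C24975616T in its exon 2. The stretches of coding sequence around the coding sites outside the printed exons show in capitals the base that separated the groups.
SLA-DQB1 (minus strand), chr7:24975601-24975631: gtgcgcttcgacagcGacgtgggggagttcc
VARS (minus strand), chr7:23898746-23898776: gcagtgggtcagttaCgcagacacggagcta
HSP70.2, chr7:23927449-23927479: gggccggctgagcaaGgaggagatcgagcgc
SKIV2L, chr7:24050682-24050712: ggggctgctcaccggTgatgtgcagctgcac
VARS, the cytosolic valine tRNA synthetase, had G23898761A, at which the control pools were non-reference. HSP70.2 had G23927464A and SKIV2L, an RNA helicase of the exosome, had T24050697C, both in the squalene pools. The HSP70.2 site lies within the span of HSPA1L on the other strand. The remaining sites were G23009788A in the pseudogene SLA-11, A23620641C in the pseudogene MIC-1, where the control pools were non-reference, G23916385A in an intron of HSPA1L and T24898727G between genes.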

How the data were processed

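Liver RNA of 8 pools (4 control, 4 squalene) was sequenced by the authors on the DNBSEQ platform, and clean reads were mapped to Sscrofa11.1 with HISAT2. The authors deposited SNP tables with 1 base letter, or 2 letters, per site and pool. The SNP caller, its filters and depth per site were not given in the sources used here. Status marks of calls were set by font color, which the text does not carry, so a letter differing from the reference was counted whatever its mark. FPKM values deposited by the authors were used only to choose expressed genes (mean of at least 1) and to describe levels. Tables of splicing and of differential expression were not used here.

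Sites were annotated with the RefSeq annotation of the same assembly; the reference base matched at 269579 of 269579 sites. A coding change was called per gene on 1 transcript, and 142 of 10543 transcripts with an internal stop were left out. Groups were compared by exact permutation over 70 assignments of pools, and the region with other sites by sign flips over 256 patterns, adjusted over 8 tests at a threshold of 0.05. Functions were tested on simulated data. Alternatives were sites covered in all pools, sites seen in at least 2 pools, exonic sites, bounds moved inward by 500 kb, other FPKM limits, chromosome 7 as comparison and leaving out each pool. Python 3.11.15, numpy 2.4.6, pandas 2.3.3 and scipy 1.17.1 were used.

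The region, the gene lists and the tests were chosen with earlier results of these data known. Genes named were all of the class I, class I-like and class II lists, the 15 with the most exonic sites and the 2 leading genes of each other list; further genes were named where a separated site or another result fell in them, after their values were seen. Pools of the same number did not deviate together (correlations of -0.04 to 0.00 over all sites covered in all pools), so they were not paired. Nothing states whether pools were prepared separately beyond the pooling, so p-values measure the spread between pools.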

Additional observations from a re-analysis of the deposited data

Results flagged for a closer look

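Control pool 4 stood apart from the other control pools in 3 counts of coding non-reference sites, each with a gap to the next pool above Dixon's critical value for 4 samples. It had 335 in the region against 366 to 369, 91 in the SLA class I and II genes against 98 in each of the other control pools, and 244 in the other genes of the region against 268 to 271. The counts overlap in part, since the first is the sum of the other ones. It had a letter at 1714 of the 2351 sites, the fewest of the control pools, and the part of this in the counts was not tested. In all, 38 sets of 4 pools were examined, and chance flags about 1 in 20.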

How the results depend on the processing

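Of 115 alternatives, 103 kept the direction and the side of the threshold (unadjusted p of 0.05) or stayed within 1.5 times of the count. The differences in nonsynonymous share, within the region and against the rest, and in sites per exonic kb kept both under every alternative run. With only sites non-reference in at least 2 pools, the difference between the diets turned to -4.25 sites and to -0.21 points of the covered sites, and the region minus the rest of the genome to 0.00644 points. Without the sites inside the spans of the SLA class I and II genes, an alternative chosen after seeing the data, the difference in transitions per transversion turned to 0.19. The cause of these changes was not tested. With 1 pool left out, the diets differed by -16.7 to 38.75 sites, the non-reference share of the region minus the rest was -2.31 to -1.32 points, passing the threshold without squalene pool 1 or squalene pool 2 (p = 0.0469 and p = 0.0312, exact sign-flip permutation test), and 13 to 21 sites were separated. With a replicate block, pools of the same number taken as pairs, the diets differed by 17.75 sites (p = 0.75, exact) and 1.41 points (p = 0.25, exact), where 4 pairs allow no p below 0.125, both on the same side of the threshold as without the block. The block was run for these results only. Leaving out 1 pool allows no p below 0.0571 for the diets, and the test of matching pairs allows none below 0.0571 even with all pools. Read depth per site is unknown, so a letter from few reads counts like one from many, and a minor base of a pool can be missed.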

Other observations

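Sites non-reference in a single pool were counted per pool. Over all sites of the region, control pools 1 to 4 had 101, 127, 137 and 99 that no other pool carried, and squalene pools 1 to 4 had 137, 170, 116 and 129, so that the groups overlapped. Among the sites covered in all 8 pools, control pools 1 to 4 had 14, 18, 27 and 21 such sites, and the squalene pools had 42, 48, 43 and 31, so that the groups did not overlap there. In the rest of the genome the control pools had 2115 to 3142 such sites and the squalene pools 2165 to 2600, counted in the same way. This was noticed after the values were seen and was not tested.

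Of the 34 exonic sites of the long noncoding RNA LOC100155975, 25 were non-reference in 1 pool, none was covered in all 8 pools, and its mean level was 0.144 FPKM. Of the 17 exonic sites of LOC100153139, annotated as a DRB1-like class II beta chain, 10 were covered in all 8 pools. A called base that made a stop codon was present at 1 site of the region, in TRIM15 at position 22742542, in 1 pool.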
